A study of Mus musculus with 8 samples.

Results

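The Ms4a membrane protein family was followed in arrays of the mandibular arch, the part of the mouse embryo that forms the lower jaw, at embryonic day 11.5. The members are Ms4a6b, Ms4a6c, Ms4a6d, Ms4a7, Ms4a4a and Ms4a4d, and a member was measured where a probe set was annotated to its symbol alone, with its brightest probe set, by the mean of the 8 arrays, standing for the gene. This gave 5 of the 6 members, with 10 probe sets, out of 18194 genes. Ms4a4a was not analysed here. The family was chosen by its mutant-minus-control differences on these same arrays, so those differences are given as a description and support nothing by themselves. No p-value is given for a member, and how many members passed in the fit across all genes is stated only beside the calls over all genes. No filter on low values was applied, and each of the 5 measured members is described.

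The study compared 4 arches of the genotype Wnt1-Cre;Alk5 fl/fl (mutants) with 4 arches of the genotype Alk5 fl/fl (controls), all of the strain C57BL/6J with sex not determined. Alk5 is another name of Tgfbr1, the type I TGF-beta receptor. The floxed alleles are shared by both groups, and the Wnt1-Cre transgene, which recombines them in the neural crest lineage, is named for the mutants only, so the transgene's own effect and the loss of Alk5 cannot be told apart. Blood cells, endothelium and the mesodermal muscle precursors lie outside that lineage. Nothing in the labels says that the numbered samples of a group came from separate embryos or litters, so that p-values measure the spread between these samples, which may in part be technical.

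Values are log2 expression after RMA, and a difference is a mutant mean minus a control mean on that scale. The median of an array lay between 6.28 and 6.42. On mutant replicate 3 the lower quartile was 4.99, against 4.77 to 4.85 on the other arrays, and its dim genes read higher by a median of 0.18 than on the other mutant arrays. Tgfbr1 itself read 12.98 ± 0.0115 in mutants and 12.79 ± 0.0844 in controls (SD, n = 4 each; limma adjusted p = 0.232), on a probe set whose place relative to the floxed part is not known here. The arch markers Hand2 and Dlx5 were high in both groups, at 12.04 to 12.16 and 11.07 to 11.22 in mutants and at 12.17 to 12.54 and 10.85 to 11.09 in controls. Hoxa2, which marks the arches behind the mandibular one, read 3.98 to 5.32 in mutants and 3.97 to 4.98 in controls.

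MS4A proteins cross the cell membrane several times and sit beside other receptors at the surface of blood cells, where they modulate signalling. Ms4a1 encodes CD20, the B cell antigen, and Ms4a2 encodes the beta chain of the high-affinity IgE receptor of mast cells and basophils. The Ms4a6 and Ms4a4 subfamilies and Ms4a7 are known mainly from monocytes and macrophages, with some members also made by lymphocytes. In the embryo, tissue macrophages enter the arch from the circulation and are not made by the neural crest. The genes lie side by side in one cluster on mouse chromosome 19.

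The promoter windows of 4 members are shown because Ms4a6b, Ms4a6c and Ms4a7 were higher in the mutants and Ms4a4d was not. Each window runs from 250 bases before to 50 bases after a gene's start and is taken from RefSeq (build GRCm38.p6), 5′ to 3′ on the gene's strand. The table held windows of 5 members, with 2 for Ms4a7, of which the one with the match to GAGGAA is printed. It held none for Ms4a6d, and that of Ms4a4a, a member not measured, was searched but is not printed. In Ms4a6b and Ms4a6c the capitals mark the longest run of bases that their windows share, and in Ms4a7 and Ms4a4d the matches to motifs.
Ms4a6b promoter (chr19:11518309-11518608, strand +): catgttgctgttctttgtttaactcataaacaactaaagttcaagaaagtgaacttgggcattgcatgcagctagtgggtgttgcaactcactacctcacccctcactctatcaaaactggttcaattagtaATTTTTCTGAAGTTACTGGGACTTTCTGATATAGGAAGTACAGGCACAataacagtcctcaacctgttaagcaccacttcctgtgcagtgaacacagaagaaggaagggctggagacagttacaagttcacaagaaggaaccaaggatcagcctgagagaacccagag
Ms4a6c promoter (chr19:11469118-11469417, strand +): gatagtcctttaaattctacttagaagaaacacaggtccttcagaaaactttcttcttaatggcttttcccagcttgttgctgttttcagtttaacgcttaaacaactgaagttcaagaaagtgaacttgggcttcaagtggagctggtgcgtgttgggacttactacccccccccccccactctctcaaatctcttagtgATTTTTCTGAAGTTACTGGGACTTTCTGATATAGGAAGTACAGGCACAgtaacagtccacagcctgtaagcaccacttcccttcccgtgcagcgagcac
Ms4a7 promoter (chr19:11336097-11336396, strand -): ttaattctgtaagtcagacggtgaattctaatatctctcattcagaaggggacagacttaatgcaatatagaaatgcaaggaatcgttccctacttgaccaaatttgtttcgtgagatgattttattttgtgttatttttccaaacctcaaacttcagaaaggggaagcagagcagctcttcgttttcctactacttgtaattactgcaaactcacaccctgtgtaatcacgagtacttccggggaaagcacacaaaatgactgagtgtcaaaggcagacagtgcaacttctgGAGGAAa
Ms4a4d promoter (chr19:11536544-11536843, strand +): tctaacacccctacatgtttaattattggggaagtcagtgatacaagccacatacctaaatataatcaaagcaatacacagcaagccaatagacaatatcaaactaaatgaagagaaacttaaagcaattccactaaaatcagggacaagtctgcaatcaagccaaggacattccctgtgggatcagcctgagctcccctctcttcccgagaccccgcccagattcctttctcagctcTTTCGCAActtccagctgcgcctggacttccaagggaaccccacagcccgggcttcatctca

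The Ms4a6b and Ms4a6c windows were near copies of each other over most of their length. A local alignment paired 193 identical bases with 23 mismatches and 18 gap positions, or 82.5% identity, from base -248 to -24 of Ms4a6b and from base -175 to 50 of Ms4a6c. The shared run of 48 bases lay at -118 to -71 in Ms4a6b and at -49 to -2 in Ms4a6c, and 2 of the 32851 windows of the table held it, those of these 2 genes. The windows were searched on both strands for GAGGAA (the core bound by PU.1, the macrophage lineage factor), TTGCNNAA (C/EBP), TGANTCA (AP-1) and GTCTAGAC (the Smad palindrome), none of which overlapped another in these windows. GAGGAA was found once near the end of the printed Ms4a7 window and TTGCNNAA once, on the reverse strand, in that of Ms4a4d, where 28.3% and 10.8% of all windows held these motifs. TGANTCA stood in the other Ms4a7 window (7.81% of all windows). The Smad palindrome, which 0.213% of all windows held, matched in none of the members' windows that were searched, which do not include Ms4a6d. The Ms4a6b and Ms4a6c windows held no match to any of the 4 motifs. A match or its lack describes these letters in these windows only.

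Ms4a6d read 7.49, 7.28, 6.64 and 7.37 in mutant replicates 1 to 4, against 5.40, 5.14, 5.28 and 5.47 in the controls. All mutant arrays lay above all control arrays, with a gap of 1.17 between the lowest mutant and the highest control, and mutant replicate 3 was the low one of its group. The means were 7.20 ± 0.379 in mutants and 5.32 ± 0.144 in controls (SD, n = 4 each), a difference of 1.87 or 3.67-fold, and of 2.06 without mutant replicate 3. This probe set (1419599_s_at) carries the suffix that the array maker gives to sets whose probes can match more than 1 transcript, so signal from a close relative cannot be told apart there. A further set of Ms4a6d without that suffix (1419598_at) read 6.38, 6.09, 4.94 and 6.38 in mutants against 4.14, 4.00, 3.99 and 4.33 in controls. Its difference was 1.83, or 2.17 without mutant replicate 3, and its groups did not overlap either.

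Ms4a6b, a relative of Ms4a6d known from lymphocytes as well as myeloid cells, read 8.64, 8.32, 8.07 and 8.50 in mutants against 7.14, 7.15, 7.11 and 7.16 in controls. The controls lay within a few hundredths of each other (7.14 ± 0.0225), whereas the mutants spread more widely (8.38 ± 0.247; SD, n = 4 each). The difference was 1.24, or 2.37-fold. Its dimmer probe set (1439956_at) read 4.32, 4.2, 3.72 and 4.11 in mutants and 3.14, 3.59, 3.48 and 3.58 in controls, a difference of 0.64 at levels below the lower quartile of every array.

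Ms4a6c had the smallest difference of the 4 members whose groups did not overlap. It read 8.26, 8.07, 8.08 and 8.03 in mutants against 7.31, 7.30, 7.57 and 7.30 in controls, or 8.11 ± 0.104 and 7.37 ± 0.133 (SD, n = 4 each). The difference was 0.74, or 1.67-fold, and control replicate 3 stood above the other controls. The second probe set of Ms4a6c (1457725_at) did not separate the groups. It read 5.32, 5.25, 6.00 and 5.72 in mutants and 5.54, 5.51, 5.50 and 5.54 in controls, a difference of 0.05, and of -0.09 without mutant replicate 3.

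Ms4a7, a gene of mature tissue macrophages, read 7.65, 8.04, 7.87 and 7.22 in mutants against 5.85, 6.13, 5.73 and 6.20 in controls. Mutant replicate 4 was the low one here, and mutant replicate 3, the lowest mutant for Ms4a6b and Ms4a6d, was the second highest. The means were 7.69 ± 0.353 in mutants and 5.98 ± 0.223 in controls (SD, n = 4 each), a difference of 1.72 or 3.29-fold. The further probe set of Ms4a7 (1445365_at) lay between 3.35 and 3.70 on all 8 arrays, below each array's lower quartile, with a difference of 0.13.

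Ms4a4d, from the Ms4a4 subfamily, showed no shift of the mutants as a group. It read 5.76, 5.42, 5.02 and 5.84 in mutants and 6.41, 5.76, 5.21 and 5.02 in controls. Mutant replicate 3 (5.017) lay just below the lowest control (replicate 4, 5.025), and the other mutants lay within the range of the controls. Control replicate 1 stood above every mutant. The means were 5.51 ± 0.375 in mutants and 5.60 ± 0.624 in controls (SD, n = 4 each). The difference of -0.09 was smaller than the SD of either group, and its sign depended on the arrays: it was 0.18 without control replicate 1, 0.13 with array weights and -0.29 without control replicate 4.

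**Figure D1:**
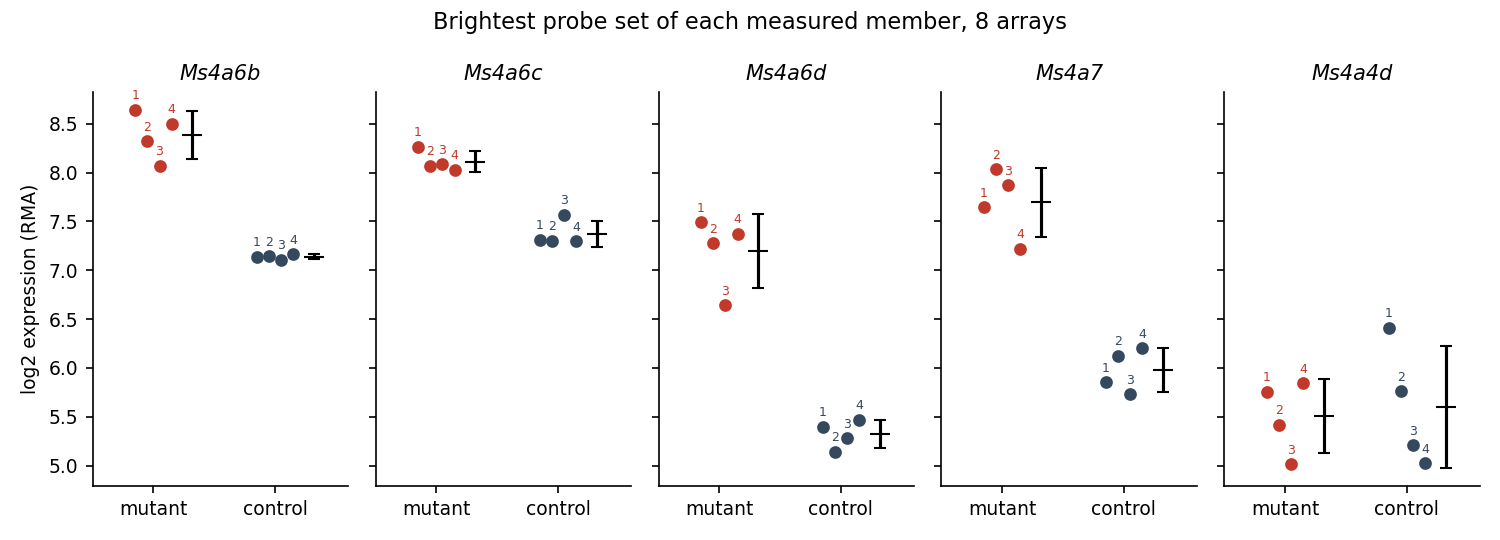
Log2 expression (vertical axis) of the brightest probe set of Ms4a6b, Ms4a6c, Ms4a6d, Ms4a7 and Ms4a4d on the 4 mutant and 4 control arrays; small digits are replicate numbers and black marks are the mean ± SD. The mutant points lie above the control points for every gene but Ms4a4d, whose groups overlap.

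In the fit across all genes, 4 of the 5 measured members passed an adjusted p under 0.05 in limma's moderated test, all of them higher in the mutants, where 2.14% of all genes passed, 0.835% higher and 1.31% lower. The groups did not overlap, with the mutants higher, for the same 4 members and for 3.27% of all genes. Since the family was picked up from this comparison, nothing is read from these counts. Ordered by size of rise among the 18194 genes, Ms4a6d ranked 7, Ms4a7 14, Ms4a6b 39, Ms4a6c 104 and Ms4a4d 13140.

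**Figure D2:**
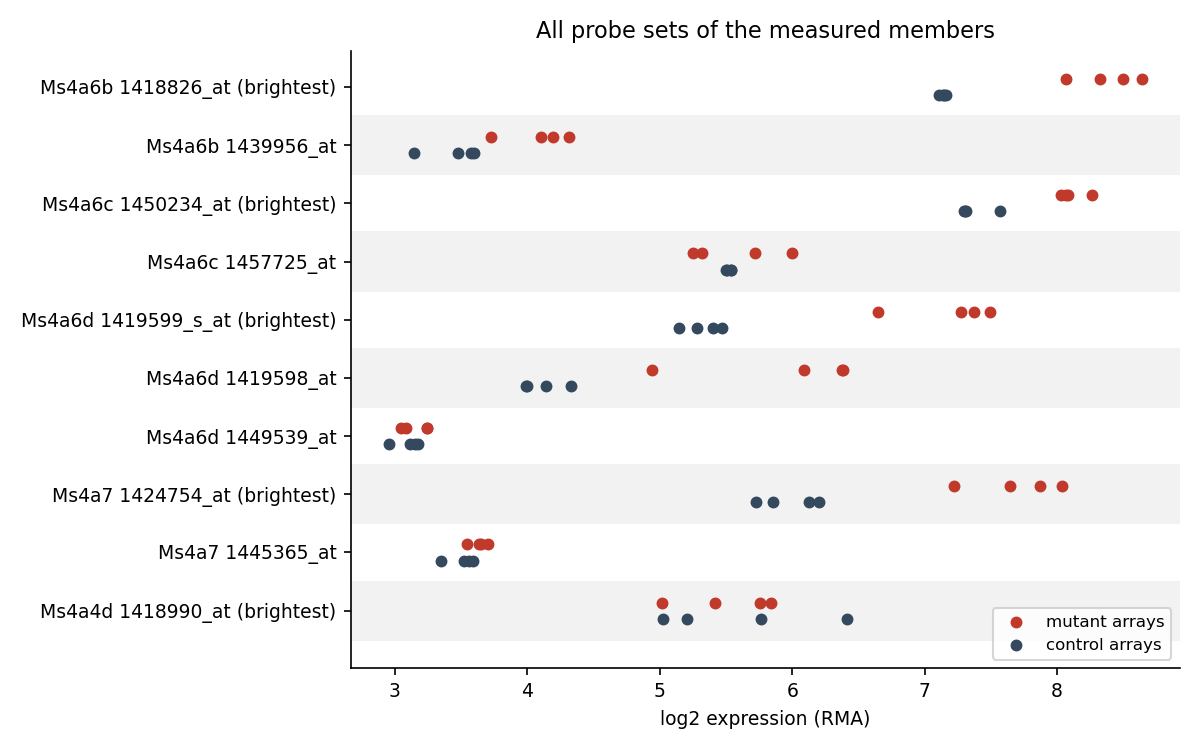
Log2 expression (horizontal axis) of all 10 probe sets of the 5 measured members on the mutant arrays (red, upper row of each pair) and control arrays (dark, lower row). The groups separate for 6 of the 10: both sets of Ms4a6b, 2 of the 3 of Ms4a6d and the brightest of Ms4a6c and Ms4a7.

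Probe sets of one gene thus differed in what they showed. Averaged over all probe sets of a gene, the difference was 1.25 for Ms4a6d, 0.94 for Ms4a6b, 0.92 for Ms4a7 and 0.40 for Ms4a6c, each smaller than that of the brightest set. The sets that showed little difference were the dimmest one of Ms4a6d (1449539_at, between 2.95 and 3.24 on all arrays, difference 0.05) and the second ones of Ms4a7 and Ms4a6c.

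The other genes of the cluster, most of them dim, differed little between the groups. RefSeq lists 21 Ms4a genes there, of which 17 were measured, and the 12 outside the family described here had differences between -0.04 and 0.18, with a median of 0.08. In limma 0 of the 12 passed, with 0 at an unadjusted p under 0.05. The B cell gene Ms4a1 differed by -0.04 ± 0.178 and the mast cell gene Ms4a2 by 0.14 ± 0.126 (± SE). Ms4a3, known from granulocyte and monocyte progenitors, differed by 0.18 ± 0.171, Ms4a4b, known from T cells, by 0.04 ± 0.12, and Ms4a4c by 0.18 ± 0.107. The rest were Ms4a10 (0.14), Ms4a15 (0.14), Ms4a18 (0.12), Ms4a8a (0.02), Ms4a13 (-0.03), Ms4a20 (0.03) and Ms4a19 (0.02). Without mutant replicate 3 the median of the 12 was -0.04.

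Ms4a4c and Ms4a4b lie between Ms4a7 and Ms4a6c in the gene order, and Ms4a4d lies between Ms4a6b and Ms4a6d. Ms4a4c read 5.83, 5.73, 6.24 and 5.88 in mutants and 5.79, 5.72, 5.77 and 5.70 in controls, and Ms4a4b read 4.31, 3.81, 4.31 and 3.96 in mutants and 4.15, 4.00, 4.10 and 3.98 in controls. The groups of both overlapped. In gene order, the genes with higher mutant values were interleaved with genes that showed no such difference. The latter were dim, with control means of 5.75 (Ms4a4c), 4.06 (Ms4a4b) and 5.60 (Ms4a4d), so a difference there could be compressed. Of 14 genes listed as other relatives, 12 were measured, 10 of them among those above. The remaining Tmem176a and Tmem176b, more distant relatives of the MS4A proteins, differed by -0.11 ± 0.108 and -0.27 ± 0.119 (± SE). In limma 0 of these 12 passed, and 0 passed with the variance trend and robust setting. An unadjusted p under 0.05 was found for 1 of them.

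**Figure D3:**
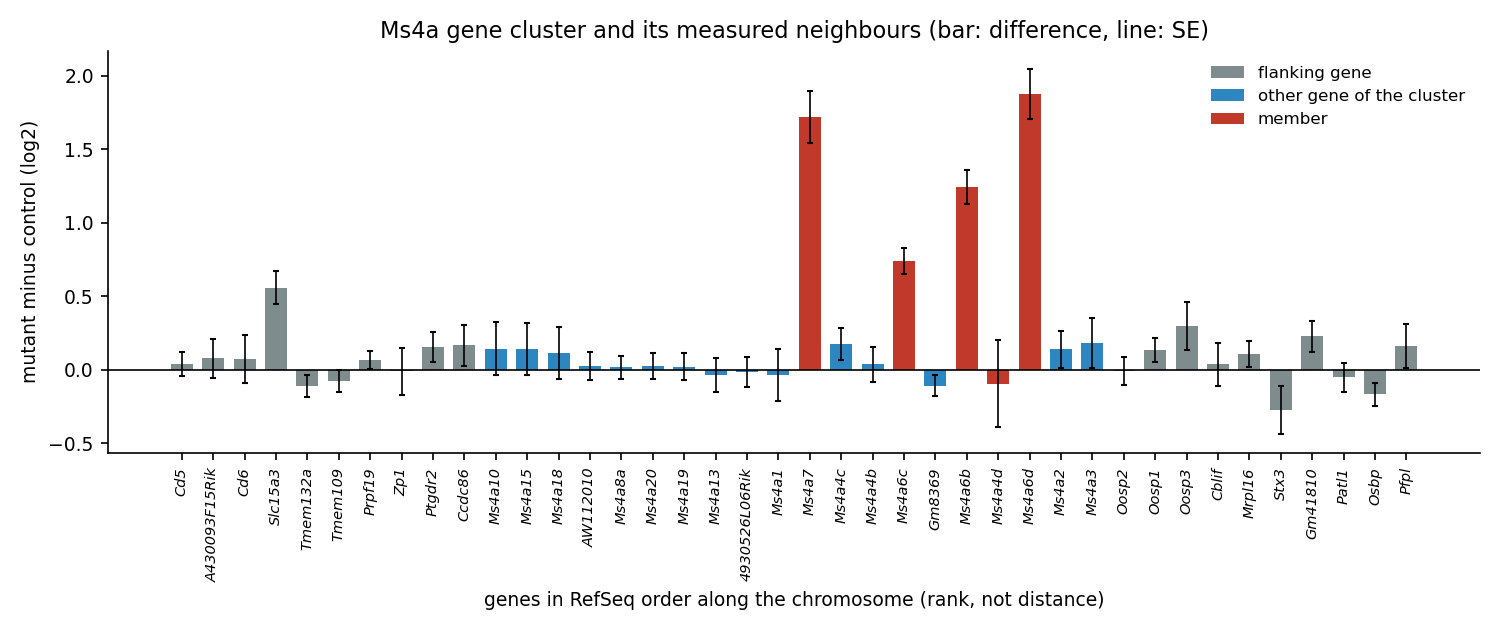
Mutant-minus-control log2 difference (bars, with SE) of the measured genes of the Ms4a cluster and of 10 measured genes on each side, in RefSeq gene order. Bars of Ms4a7, Ms4a6c, Ms4a6b and Ms4a6d reach 0.74 to 1.87, while the cluster genes between and beside them lie between -0.11 and 0.18.

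Among the 25 neighbours, taken as 10 measured genes on each flank and the cluster genes on neither list, Slc15a3 alone passed. Slc15a3, which encodes a lysosomal peptide transporter of myeloid cells, read 6.10, 5.88, 5.67 and 6.13 in mutants against 5.42, 5.25, 5.53 and 5.34 in controls. It rose by 0.56 ± 0.113 (± SE; limma adjusted p = 0.0399) and lost its call in 10 of 14 alternatives, with adjusted p up to 0.141. The median of the neighbours was 0.04, where that of all genes was -0.01.

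MS4A proteins work beside signalling receptors, and 7 genes of such receptors and their adaptors were read from the same fit. In all 4 rose and 0 fell, while 3 did not pass; the median difference was 0.61. Tyrobp, the adaptor DAP12 of myeloid receptors, read 9.19, 9.02, 8.61 and 8.94 in mutants against 7.85, 8.0, 7.84 and 7.71 in controls, and rose by 1.09 ± 0.122 (limma adjusted p = 0.00373). Fcer1g, the gamma chain shared by Fc receptors, rose by 0.66 ± 0.0954 (limma adjusted p = 0.0105), Trem2, a lipid-sensing receptor that signals through Tyrobp, by 0.61 ± 0.0959 (limma adjusted p = 0.0149), and Clec7a, the beta-glucan receptor Dectin-1, by 0.74 ± 0.156 (limma adjusted p = 0.0467; all ± SE). In none of these 4 did the groups overlap. Clec7a lost its call in 9 of 14 alternatives (limma adjusted p up to 0.165) and Trem2 in 4 of 14 (up to 0.0691). The brightest set of Trem2 (1421792_s_at) carries the same suffix as that of Ms4a6d. Its second set (1421226_at), without that suffix, differed by 0.12, and by -0.02 without mutant replicate 3.

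Of the partners used by mast cells, Fcer1a and Kit did not pass, whereas Fcer1g, whose chain several Fc receptors share, rose as given above. Fcer1a, the IgE-binding chain that pairs with the Ms4a2 product, differed by 0.15 ± 0.113 (limma adjusted p = 0.655), and Kit, the stem cell factor receptor, by 0.34 ± 0.19 (limma adjusted p = 0.498; ± SE). The kinase gene Syk, which acts below several of these receptors, differed by 0.10 ± 0.109 (limma adjusted p = 0.758).

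Of the 21 macrophage genes on the list, 9 rose on the same mutant arrays and 0 fell. The other 12 did not pass, and the median difference of the list was 0.37, where that of all genes was -0.01. In this bulk tissue more cells of a type and more RNA per cell cannot be told apart. C1qb, C1qc and C1qa, which encode the complement chains made by tissue macrophages, rose by 1.54 ± 0.149, 1.52 ± 0.149 and 1.40 ± 0.131, and the cathepsin gene Ctss by 1.23 ± 0.172 (± SE; limma adjusted p = 0.00195, 0.00201, 0.0016 and 0.00899 in that order). The linear signals of the 21 genes summed to 5622 to 7778 in mutants and 3554 to 3751 in controls, without overlap. Those of the 5 members summed to 906.7 to 1141 in mutants and 451.5 to 484.7 in controls. The members were chosen by this contrast, so nothing is read from the separation of their sums. A linear sum weighs its brightest genes most. For the macrophage list these were Csf1r and Ctss (means of 10.51 and 10.33 in mutants), both among the 9 that rose. Its sum therefore does not speak for the 12 that did not pass. Among those that did not pass, Itgam, Cd14, Spi1, Timd4 and Cd163 differed by -0.10, 0.11, 0.10, 0.11 and -0.11, and Itgam, Timd4 and Cd163 read below 5 on every array. Lyve1, a receptor gene of some tissue macrophages and of lymphatic endothelium, went the other way. It read 4.28, 4.36, 4.44 and 4.36 in mutants against 4.58, 4.52, 4.69 and 4.70 in controls, without overlap, a difference of -0.26 ± 0.0734 (± SE; limma adjusted p = 0.12). After a further quantile normalization 10 genes of the list were called higher and 1 lower. Lyz2, the lysozyme gene, differed by 0.58 (limma adjusted p = 0.0669), with no overlap either. RMA values have no true 0, so an unexpressed gene cannot be told from a dim one. Fcgr1 differed by 0.13 on its brightest probe set and by 1.10 on its other one. The part of the macrophage genes in the values of the Ms4a members was not tested.

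Of 10 genes linked to the alternative activation of macrophages, a state in which Ms4a4a and Ms4a7 are known, 1 rose and 0 fell, and 9 did not pass (median 0.23). The one that rose was Arg1, the arginase gene, with 8.26, 8.23, 7.43 and 7.99 in mutants against 6.5, 5.96, 5.86 and 6.52 in controls, a difference of 1.77 ± 0.213 (± SE; limma adjusted p = 0.00482). Of the list, 5 genes had an unadjusted limma p under 0.05, where 2450 of all 18194 genes did. In 3 genes of the list the groups did not overlap, with the mutants higher, where 3.27% of all genes showed this. These 3 were Arg1, the scavenger receptor gene Stab1 (difference 0.42; limma adjusted p = 0.113) and the lectin gene Clec10a (0.37; limma adjusted p = 0.0892). The other differences were 0.35 for Mrc1, 0.24 for Chil3, 0.22 for Il4ra, 0.05 for Folr2, 0.01 for Retnla, -0.11 for Cd163 and -0.13 for Mgl2.

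Markers of other blood cells showed no call. Of 34 listed genes of monocytes, granulocytes, mast cells, B cells and T or NK cells, 30 were measured. In limma 0 of them passed, and 0 passed with the variance trend and robust setting. An unadjusted p under 0.05 was found for 6, as for 2450 of all 18194 genes. Of these 6, 5 were granulocyte genes and 1 a monocyte gene, and all 8 granulocyte differences were above 0. Besides S100a9 and Csf3r below, the granulocyte genes among the 6 were S100a8 (difference 1.13), Camp (0.59) and Ngp (0.51). The medians were -0.01 over 5 monocyte genes, 0.47 over 8 granulocyte genes, 0.08 over 6 mast cell genes, 0.06 over 5 B cell genes and 0.11 over 6 T or NK cell genes. The linear signals of these lists summed to 2517 to 3999, 961.7 to 1466, 311.5 to 447, 325.6 to 479.7 and 516.3 to 790.5 in mutants, and to 2984 to 3528, 454.5 to 1195, 313.4 to 341.3, 329.7 to 373.4 and 518.8 to 560.4 in controls, overlapping in each of the 5. S100a9, a granulocyte alarmin gene, read 8.42, 7.97, 7.35 and 7.54 in mutants and 5.56, 6.78, 8.04 and 5.46 in controls, so that a large difference (1.36 ± 0.518, ± SE; limma adjusted p = 0.279) went with a wide spread of the controls. Csf3r, the receptor gene of the granulocyte growth factor, differed by 0.44 (adjusted p = 0.243), and the monocyte-list genes S100a4 and Plac8 by -0.52 (adjusted p = 0.307) and 0.28 (adjusted p = 0.456). The mast cell protease genes Tpsab1 and Cma1 differed by 0.10 (adjusted p = 0.764) and 0.12 (adjusted p = 0.788), the B cell receptor genes Cd79a and Cd22 by -0.09 (adjusted p = 0.692) and 0.20 (adjusted p = 0.749), and the T cell genes Cd8a and Cd3e by 0.23 (adjusted p = 0.62) and 0.11 (adjusted p = 0.763), all in limma.

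**Figure D4:**
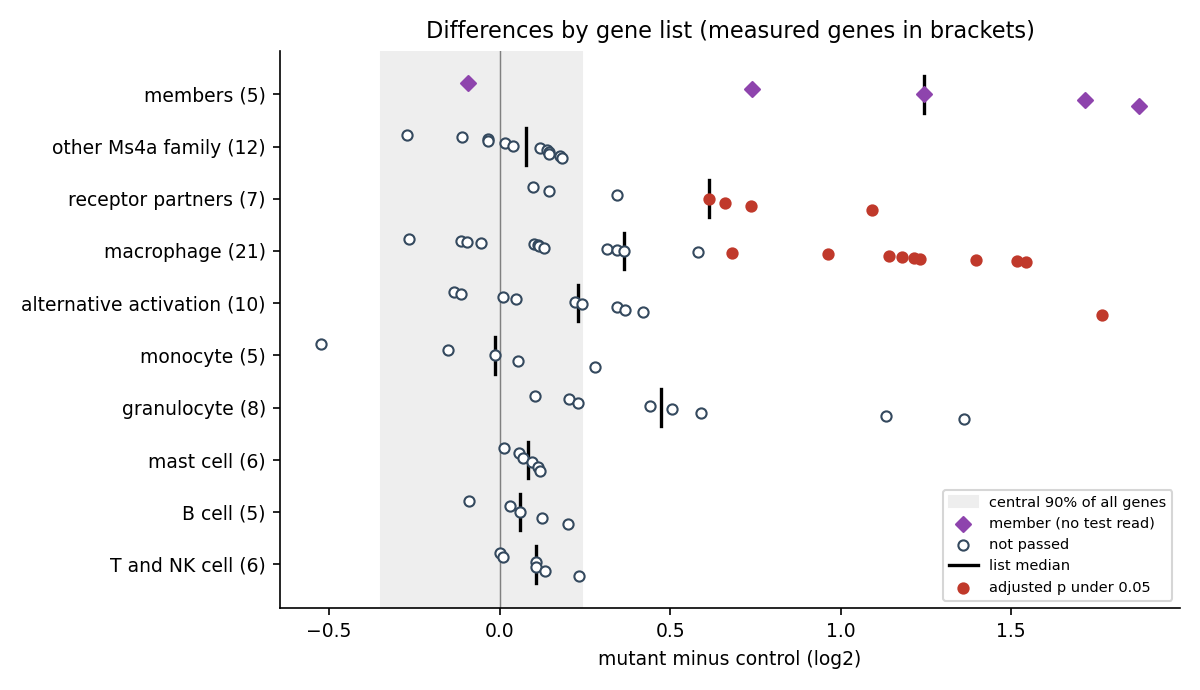
Mutant-minus-control log2 difference (horizontal axis) of each measured gene by list; diamonds are the Ms4a members, filled circles passed an adjusted p under 0.05, open circles did not, and black lines are list medians. The grey band from -0.35 to 0.24 holds the central 90% of all genes, and the members lie outside it except Ms4a4d.

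The order of the 4 mutant arrays differed between members. For Ms4a6b and Ms4a6d the rise above the control mean was lowest in mutant replicate 3, at 0.93 and 1.32, and highest in mutant replicate 1, at 1.5 and 2.17. For Ms4a7 it was lowest in mutant replicate 4, at 1.24, and highest in mutant replicate 2, at 2.06. Of the 9 macrophage genes that rose, 6 were lowest in mutant replicate 3, and the other 3 (Csf1r, Adgre1 and Ctss) in mutant replicate 4. Csf1r, the receptor for the macrophage growth factor, was above its control mean by 1.39, 1.32, 1.06 and 0.95 in mutant replicates 1 to 4.

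Genes with the most similar profiles were sought for the 4 members that spanned more than 1 log2 unit over the arrays. Likeness was the root mean square, over the 8 arrays, of the difference between 2 genes' values after each was centred on its own mean, so that a small value means a close match. The genes were found from the same arrays and contrast, so likeness is a description that covers the difference between the groups as well as the spread within them. For every member the candidates were the 9097 genes whose mean lay above that of the median gene, so dimmer genes could not be found. Closest to Ms4a6d were Mpeg1, which encodes the pore-forming perforin-2 of macrophages (0.17), C1qb (0.22) and the muscle enolase gene Eno3 (0.23). Closest to Ms4a6b were the growth cone gene Gap43 (0.12), Tyrobp (0.13) and Lrba (0.13). Mpeg1 also came first for Ms4a7, at a distance of 0.30, followed by the transcription factor gene Gata2 (0.35) and Gap43 (0.35). Mpeg1 read 8.88, 8.76, 8.28 and 8.53 in mutants against 7.09, 6.83, 6.84 and 7.0 in controls.

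Ms4a4d matched other genes. Its 3 closest were Mettl23 (0.22), Slc9a3r1 (0.28) and the cell cycle inhibitor gene Cdkn1a (0.28), with mutant-minus-control differences of 0.16, 0.09 and -0.17. Between members the distance was 0.30 for Ms4a6b and Ms4a6c, 0.34 for Ms4a6b and Ms4a6d, 0.42 for Ms4a6d and Ms4a7 and 0.42 for Ms4a6b and Ms4a7. Ms4a6c lay 0.57 from Ms4a7 and 0.62 from Ms4a6d, about as far as from Ms4a4d (0.63). Ms4a4d lay 0.78 from Ms4a6b, 1.07 from Ms4a6d and 1.09 from Ms4a7. The measure takes in the size of a difference, which was smaller for Ms4a6c than for the other 3 members that were higher in mutants.

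**Figure D5:**
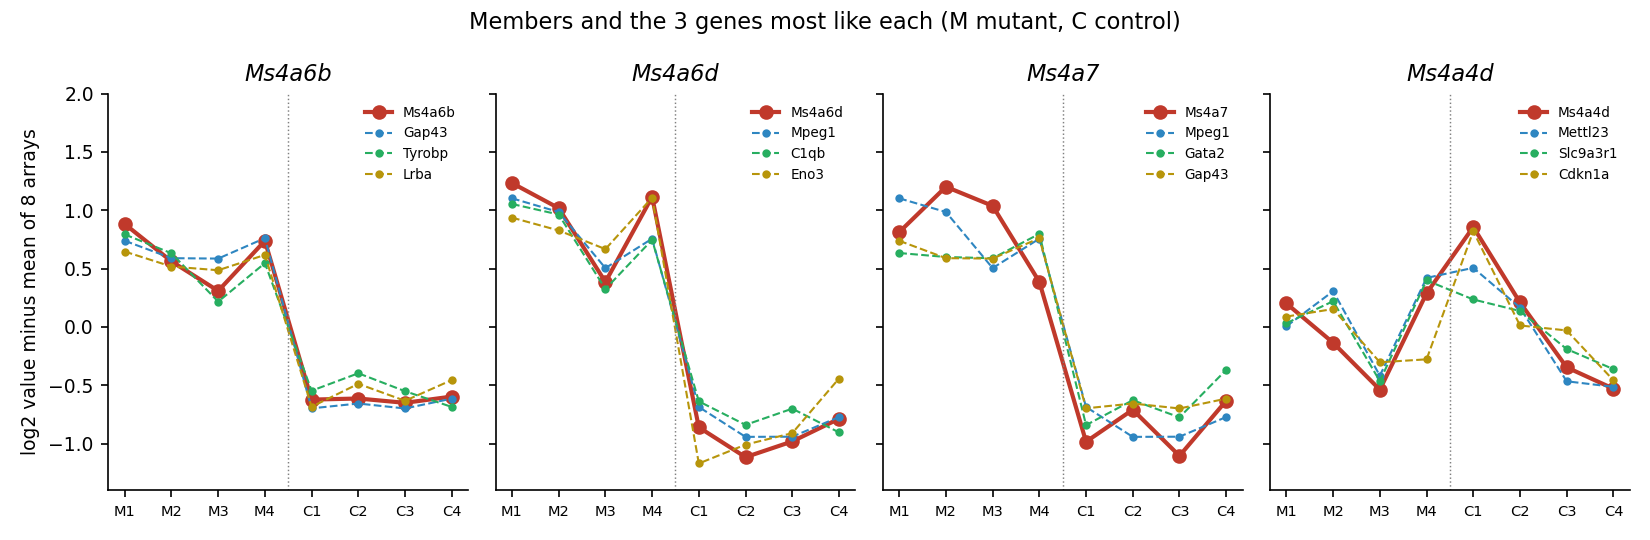
Centred log2 values (vertical axis) on mutant arrays M1 to M4 and control arrays C1 to C4 for Ms4a6b, Ms4a6d, Ms4a7 and Ms4a4d (solid) and the 3 genes most like each (dashed). The first 3 members step down between the mutant and the control arrays, and Ms4a4d and its matches vary within both groups.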

How the data were processed

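RNA of 8 mandibular arches was hybridized to Affymetrix arrays after biotin labelling, per the labels' protocols. The authors deposited log2 values per probe set made with RMA, per the submitters' processing notes, which give no version here. RMA subtracts background, equalizes the arrays' distributions and summarizes probes, which compresses differences of dim probe sets. Detection calls were not used. Of 45101 probe sets, 34958 had 1 gene symbol in the platform annotation, 932 several and 9211 none. Genes were named from the first kind, of which 34754 matched RefSeq (GRCm38.p6) by Entrez identifier.

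Groups were compared over 18194 genes without covariates by the lmFit and eBayes functions of limma 3.58.1, run in R 4.3.3, with Benjamini-Hochberg adjustment and a threshold of 0.05. Genes "rose" or "fell" past it. The steps were tested on simulated arrays. Promoters were aligned with Biopython 1.88.

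The members, gene lists, motifs and rule for named genes were chosen with earlier results of these data known. The rule took all members, relatives and partners, up to 4 genes past the threshold per further list (or the 2 with the smallest p), and the 3 genes most like each member. Ms4a19, Ms4a20, Tgfbr1, the arch markers and the further list members given with a difference or values only were named outside it, after their values were seen. Alternatives were the replicate block, mean of probe sets, another variance model, a filter on dim genes, 2 normalizations, array weights and leaving out each array.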

Additional observations from a re-analysis of the deposited data

Results flagged for a closer look

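A single sample stood apart from the other 3 of its group, by Dixon's gap test, in 9 of 106 groups of 4 arrays examined, where chance alone gives about 1 in 20.

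Among the members this was Ms4a6c, with control replicate 3 at 7.57 against 7.30 to 7.31 in the other controls; without it the difference of Ms4a6c was 0.81. In mutant replicate 3 the genes Ms4a2 (4.33), Ms4a3 (5.91), Ms4a10 (5.82), Csf3r (6.61) and Cd8a (7.64) were high, and the other mutants lay at 4.04 to 4.08, 5.14 to 5.27, 4.97 to 5.10, 5.87 to 5.98 and 6.86 to 6.96. That array read dim genes higher by a median of 0.18 than the other mutant arrays, and 8 of the 12 other relatives had their highest value there; its part in these values was not tested. The others were Cd79a in mutant replicate 2 (5.63, others 5.85 to 5.89), S100a4 in control replicate 4 (5.50, others 6.36 to 6.47) and Plac8 in control replicate 1 (7.09, others 7.49 to 7.53).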

How the results depend on the processing

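The differences of Ms4a6b, Ms4a6c, Ms4a6d and Ms4a7 stayed above 0 under every alternative that measured them, and leaving out 1 array gave 1.16 to 1.35, 0.69 to 0.81, 1.78 to 2.06 and 1.6 to 1.87; that of Ms4a4d ran from -0.29 to 0.18. Averaging each gene's probe sets gave 0.94 (Ms4a6b), 0.40 (Ms4a6c), 1.25 (Ms4a6d) and 0.92 (Ms4a7). Members called fell to 3 with averaged probe sets, where 341 genes were called over all genes. They stayed at 4 whichever array was left out, where 104 to 618 genes were called over all genes. Over the 9097 genes above the median level, which include 2 members, 313 genes were called (92 higher). Among them were 2 members, 2 partner genes, 5 macrophage genes, 0 alternative activation genes and 0 neighbours. Arg1, Slc15a3, Clec7a, Trem2, C1qc, Cd68, Aif1 and Ptprc lay below the median level. This filter thus left them out, and they were not tested under it. Calls over all genes were 390, but 620 after a further quantile normalization, 1356 with array weights and 104 (without control replicate 3) to 618 (without mutant replicate 3) with 1 array left out. Array weights called 14 macrophage genes, 5 alternative activation genes and 2 neighbours, and quantile normalization 2 alternative activation genes and 0 neighbours. No neighbour passed with arrays centred on their median (0) or under the replicate block (0). Leaving out 1 array gave 7 to 14 macrophage genes, 2 to 4 partner genes, 1 to 3 alternative activation genes, 0 to 1 neighbour, 0 to 1 gene of other blood cells and 0 other relatives. Beyond the genes that the filter on dim genes left out, the cause of these changes was not tested. The replicate number as a block gave 293 calls over all genes and 4 members; deviations of same-numbered arrays correlated at 0.03, 0.00, -0.12 and 0.41, so the numbers were not taken as pairs. The number of arrays and the compression of dim probe sets limit all values.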
